A study of Mus musculus with 16 samples.

Results

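The antibody light chain loci were represented by 120 of the 55681 probes on a mouse expression array, chosen by position alone (mm9, per the file headers). The kappa window lay on chromosome 6 between 67500000 and 70700000 and held 109 probes, and the lambda window lay on chromosome 16 between 19026000 and 19265000 and held 11. By their descriptions, 89 probes on chromosome 6 and 2 on chromosome 16 targeted variable segments, 5 targeted constant regions, 2 were light chain cDNAs of no stated region and 22 had another or no description. RNA came from B220+ splenic B cells (B220 is a surface marker of B cells) on 16 single-colour arrays. The KO mice lacked the 3'RR, an enhancer cluster of the heavy chain locus, because their IgH allele, of 129 origin, was knocked out, in a BALBC background. BALBC is also their entry under strain, while wild-type (WT) mice are entered as 129, so genotype and strain cannot be told apart. Each of 2 slides held 4 KO and 4 WT arrays, and no age, sex or treatment is given. Whether the arrays are separate mice is not stated, so each p-value reflects only the spread among these samples, part of which may be technical.

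A light chain gene is assembled in each developing B cell by joining 1 of many variable (V) segments to a joining segment, and the transcript is then spliced to a constant (C) region. Most mouse B cells carry kappa light chains and a minority carry lambda. The constant region is shared by all chains of a type, while a V segment is transcribed in quantity only in the cells that chose it. Plasma cells, the antibody-secreting descendants of B cells, hold far more light chain transcript per cell than resting B cells. In bulk RNA a change in the number of such cells and a change in RNA per cell cannot be told apart.

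The probe sequences of constant regions, of the Iglv1 variable segment and of the kappa V segments with the most negative differences between slides that passed the test are shown because each measures a different stretch of the transcript; all are 60 bases, 5′ to 3′, as the array files give them. In the Igkc probe (chr6:70676692-70676751, plus strand) the capitals mark the last cysteine codon, which bonds to the heavy chain, and the stop codon. In the Iglv1 probe (chr16:19085111-19085170, minus strand) they mark TATTTCTGT, which encodes the conserved framework cysteine before the antigen-contacting loop. This motif or TATTACTGT, searched on both strands, was in 25 of 89 kappa variable probes (28.1%) and in 0.339% of all probes. The Iglc2 probe lies at chr16:19198704-19198763 and the first Iglc3 probe at chr16:19065462-19065521 (both minus strand). The Igkv3-1 probe lies at chr6:70653921-70653980 and the Igkv1-99 probe at chr6:68492171-68492230 (both plus strand).
Igkc: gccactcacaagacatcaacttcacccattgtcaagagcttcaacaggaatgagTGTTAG
Iglc2: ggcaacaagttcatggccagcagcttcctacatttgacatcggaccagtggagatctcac
Iglc3: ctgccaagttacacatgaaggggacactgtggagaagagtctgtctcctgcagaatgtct
Iglv1: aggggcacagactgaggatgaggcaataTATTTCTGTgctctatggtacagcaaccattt
Igkv3-1: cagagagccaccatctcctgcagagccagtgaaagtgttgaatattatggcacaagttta
Igkv1-99: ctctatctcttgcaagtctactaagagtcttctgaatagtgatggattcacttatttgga

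V segments of a family resemble each other, so a probe can also bind transcripts of its relatives. Of the 89 kappa variable probes, 17 matched another at 90% or more of at least 50 aligned bases. The next pairs show the Igkv3-2 probe (chr6:70648995-70649054) beside its closest relative on the array, Igkv3-4 (chr6:70622312-70622371), with 46 of 53 aligned bases shared, and Igkv11-125 (chr6:67863987-67864046) beside Igkv14-126 (chr6:67846563-67846622), with 40 of 46 shared. All lie on the plus strand. Capitals mark bases that differ from the partner or lie outside the alignment.
Igkv3-2: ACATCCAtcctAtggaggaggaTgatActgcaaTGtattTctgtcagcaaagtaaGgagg
Igkv3-4: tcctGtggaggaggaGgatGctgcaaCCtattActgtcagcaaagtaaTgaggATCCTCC
Igkv11-125: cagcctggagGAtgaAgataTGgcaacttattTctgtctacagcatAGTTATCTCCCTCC
Igkv14-126: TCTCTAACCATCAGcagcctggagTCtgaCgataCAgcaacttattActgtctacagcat

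Levels are the log2 of the processed signal, from which the 75th percentile of the same array was subtracted, and differences are KO minus WT on that scale, from a limma fit over all measured probes with Benjamini-Hochberg adjustment and a threshold of 0.05. Probes that stood well above background in 4 or more of the 16 arrays counted as measured, which 32873 of all probes and 115 of the 120 light chain probes were. All 89 kappa variable probes were measured, 88 of them on every array, and no light chain probe was saturated. The 75th percentile of signal was 576 to 851 on slide 1 and 596 to 990 on slide 2. The 7 B cell markers gave a mean level of 5.67 to 5.91 in KO and 5.53 to 5.76 in WT on slide 1, and of 4.81 to 5.08 in KO and 4.60 to 4.71 in WT on slide 2. Of the 7, 1 was higher over both slides, Cd22 by 1.07 (adjusted p 0.0379), as were 7.58% of all measured probes. On slide 1, 1 was lower, Ms4a1 with -0.37 (adjusted p 0.00407), as were 14.1%. On slide 2, 1 was higher, Pax5 by 0.25 (adjusted p 0.0399), as were 3.65%. Ms4a1 and Pax5 also passed as positive between slides, as did 8.72%.

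No constant region probe passed the test between genotypes. Igkc, the only kappa constant gene, had levels of 8.91, 9.26, 9.14 and 9.16 in KO on slide 1, against 8.73, 9.25, 8.89 and 8.99 in WT. Its levels on slide 2 were 8.64, 8.31, 8.44 and 8.70 in KO, against 8.79, 8.67, 8.67 and 8.99 in WT. The groups overlapped on both slides, and the difference was 0.15 (SE 0.13, adjusted p 0.413) on slide 1 and -0.26 (SE 0.13, adjusted p 0.259) on slide 2. Iglc2 and Iglc3 encode the constant regions of lambda chains. Iglc2 differed by -0.07 (adjusted p 0.716) on slide 1 and -0.36 (adjusted p 0.129) on slide 2. The Iglc3 probes share 42 bases. Their differences were -0.05 and -0.09 on slide 1, and those on slide 2 were -0.29 and -0.35, with adjusted p from 0.0575 to 0.819. On slide 2 the highest KO level was 7.27 for Iglc2 and 7.88 and 7.58 for the Iglc3 probes, against lowest WT levels of 7.34, 7.92 and 7.73. The share of all measured probes with such a gap on slide 2 was not counted.

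None of these 4 constant probes passed limma's test over both slides, where the median difference was -0.19, within a slide or between slides. At an unadjusted p under 0.05, 2 passed over both slides, 0 on slide 1, 3 on slide 2 and 1 between slides. The share of all measured probes under that unadjusted threshold was not counted, so these counts have no background to be read against. They were among the brightest 1.45% of measured probes, a set of 476 in which 27 (5.67%) passed the test between slides. In that set 11 passed over both slides, 66 on slide 1 and 0 on slide 2. On slide 2 the median absolute difference of the set was 0.05, while the 4 constant probes ran from -0.36 to -0.26. A further probe described as constant, Igkv4-53 at 69413673, lies among the V segments and is named after one. It differed by 0.53 (adjusted p 0.383) on slide 1 and -1.11 (adjusted p 0.131) on slide 2. A probe named Igkc that lies 13.8 kb beyond the constant probe was dim, with a difference of -0.11 on slide 1 and -0.23 on slide 2.

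**Figure D1:**
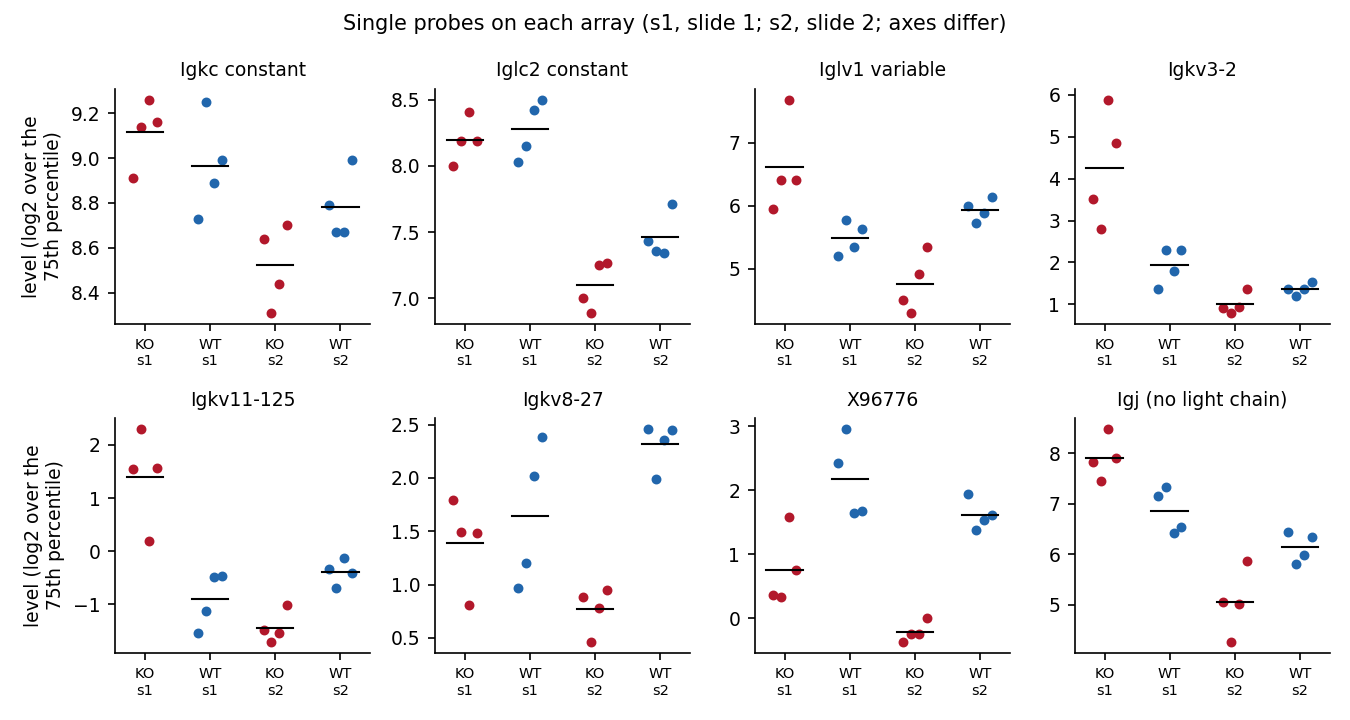
Levels (log2 over the array's 75th percentile) of 7 light chain locus probes and of Igj on each of 16 arrays, with group means as bars, KO left of WT within each slide. Igkc overlaps between genotypes on both slides, Iglc2 overlaps on slide 1 and is lower in KO by a small gap on slide 2, Iglv1, Igkv3-2 and Igkv11-125 are higher in KO on slide 1, and X96776 is lower in KO on both slides.

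Kappa variable probes were higher in KO on slide 1 and lower in KO on slide 2. By place on the slide, the higher group held the higher-numbered positions on both slides, and the part of position was not tested. On slide 1, 39 of 89 passed the test as higher and 0 as lower, with a median difference of 0.80 against -0.07 for all measured probes; over all light chain probes 42 were higher, where 9.19% of all measured probes were, and 1 was lower, where 14.1% were. On slide 2, 0 of 89 passed as higher and 16 as lower, with a median of -0.62 against 0.01 for all probes. Over all light chain probes on slide 2, 0 were higher (background 3.65%) and 19 were lower (background 3.81%). The difference between the slides' differences passed the test for 56 of 89, all negative, with a median of -1.42. Over all light chain probes 61 were negative (background 5.14%) and 0 positive (background 8.72%). In sign, 83 of the 89 were positive on slide 1 and negative on slide 2, as were 20.1% of all measured probes.

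**Figure D2:**
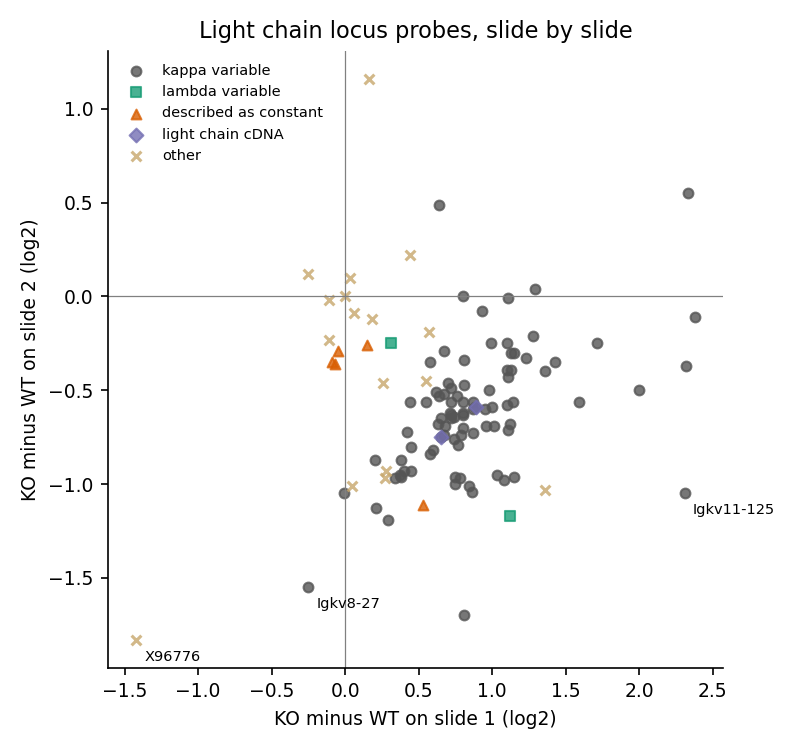
KO minus WT difference (log2) on slide 1 (horizontal) against slide 2 (vertical) for the 115 measured light chain locus probes, by class. Most kappa variable probes lie right of 0 and below 0, while 4 of the 5 probes described as constant lie near 0.

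The spread between arrays was wide. The median level of the 89 probes was 3.01, 4.46, 2.97 and 3.62 on KO arrays 9, 10, 11 and 12 of slide 1, against 2.26, 3.11, 2.62 and 2.82 on WT arrays 2, 5, 6 and 8. On slide 2 it was 1.97, 1.64, 1.84 and 2.29 on KO arrays 1 to 4, against 2.73, 2.39, 2.67 and 2.74 on WT arrays 1, 2, 3 and 5. The genotypes overlapped on slide 1 and did not on slide 2. KO array 10 held the highest value of its slide for 69 of the 89 probes and WT array 2 the lowest for 73. Without KO array 10 the median difference on slide 1 was 0.55 and 18 light chain probes were higher; without WT array 2 there were 17, without WT array 6 22 and without KO array 12 27. With slide 1 fitted alone only 3 were higher. On slide 2 the 19 lower became 4 without WT array 1, 5 without KO array 2, 8 without KO array 3, and 10 without WT array 3 or WT array 5, and 35 with slide 2 fitted alone. The 61 negative differences between slides became 39 without WT array 2 of slide 1, and on slide 2 29 without WT array 1, 31 without KO array 2, 33 without KO array 3 and 35 without WT array 3.

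**Figure D3:**
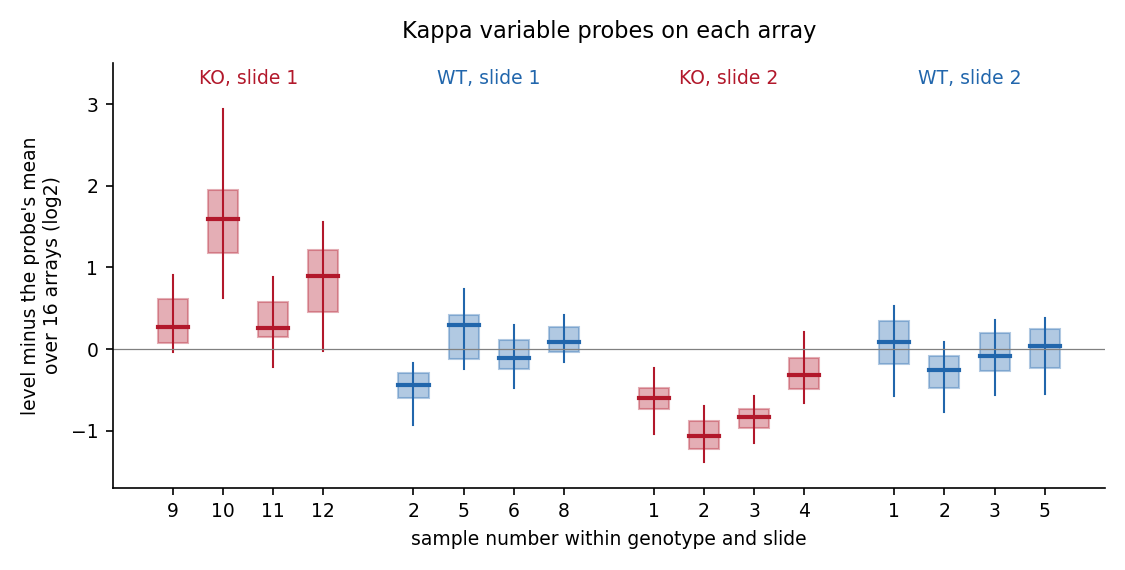
Level of the 89 kappa variable probes on each array after subtracting each probe's mean over 16 arrays (log2): bar, median; box, 25th to 75th percentile; line, 10th to 90th percentile. KO array 10 of slide 1 is highest with a median of 1.59, and KO array 2 of slide 2 lowest with -1.07.

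Among kappa variable probes past the test between slides, the most negative differences were those of Igkv11-125, Igkv3-2, Igkv3-1 and Igkv1-99. Igkv2-112, added after its values were seen, had -2.52 and did not pass (adjusted p 0.0553). Igkv11-125 had levels of 1.54, 0.20, 2.30 and 1.57 in KO on slide 1, against -1.54, -1.13, -0.49 and -0.46 in WT, and the groups did not overlap. On slide 2 it had -1.48, -1.71, -1.54 and -1.02 in KO, against -0.34, -0.69, -0.13 and -0.41 in WT. The difference was 2.31 (SE 0.36, adjusted p 0.000753) on slide 1 and -1.05 (SE 0.36, adjusted p 0.0986) on slide 2, and the difference between them was -3.35 (SE 0.51, adjusted p 0.00182). Its closest relative on the array, Igkv14-126, differed by 0.62 (adjusted p 0.416) on slide 1.

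Igkv3-2 had levels of 3.51, 5.88, 2.81 and 4.85 in KO on slide 1, against 1.38, 2.30, 1.80 and 2.30 in WT. KO arrays 10 and 12 stood above the other two. Levels on slide 2 were 0.91, 0.80, 0.95 and 1.38 in KO, against 1.38, 1.21, 1.38 and 1.53 in WT, where the groups overlapped. It differed by 2.32 (SE 0.48, adjusted p 0.00443) on slide 1 and by -0.37 (SE 0.48, adjusted p 0.738) on slide 2, and between slides by -2.68 (adjusted p 0.0215). Igkv3-1, a neighbour in the genome, differed by 2.00 (adjusted p 0.00461) on slide 1 and between slides by -2.49 (adjusted p 0.0161). Igkv1-99 had levels of 1.46, 1.35, -1.22 and -1.0 in KO on slide 1, against -3.20, -2.32, -1.84 and -1.55 in WT, a difference of 2.38 (SE 0.55, adjusted p 0.00818). KO arrays 9 and 10 were higher than KO arrays 11 and 12, so different KO arrays led for different V segments. On slide 2 Igkv1-99 differed by -0.11 (adjusted p 0.944), and between slides by -2.49 (adjusted p 0.0493).

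A pair of probes was measured for each of 5 segments. On slide 1 the differences were 0.75 and 0.78 for Igkv2-116, 1.10 and 1.23 for Igkv15-103, 1.0 and 0.74 for Igkv10-96, 1.12 and 1.11 for Igkv3-10, and 1.59 and 1.14 for Igkv3-4. On slide 2 they were -0.96 and -0.97, -0.39 and -0.33, -0.59 and -0.64, -0.68 and -0.71, and -0.56 and -0.56, in the same order. The Igkv2-116 and Igkv3-10 pairs overlap in the genome, so each pair shares sequence. The probes passing on both slides in opposite directions were 6 of 89, from the Igkv1 and Igkv2 families: Igkv1-133, Igkv1-132, Igkv1-122, Igkv2-109 and the pair for Igkv2-116. None of the 89 passed on both slides in 1 direction. The share of all measured probes passing on both slides, in opposite directions or in 1, was not counted, so these counts have no background to be read against.

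Family medians varied on each slide. The 9 Igkv3 probes had a median of 1.14 on slide 1, with 6 higher, and -0.56 on slide 2, with 0 lower. The 10 Igkv1 probes had medians of 0.85 and -0.95, with 6 higher on slide 1 and 7 lower on slide 2, and all 10 passed the test between slides. The 16 Igkv4 probes had medians of 0.80 and -0.64, and 15 passed between slides. The 7 Igkv8 probes had medians of 0.45 and -0.82, with 0 higher and 3 lower, and the 5 Igkv12 probes medians of 0.80 and 0.00. No test of a difference between families was made.

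**Figure D4:**
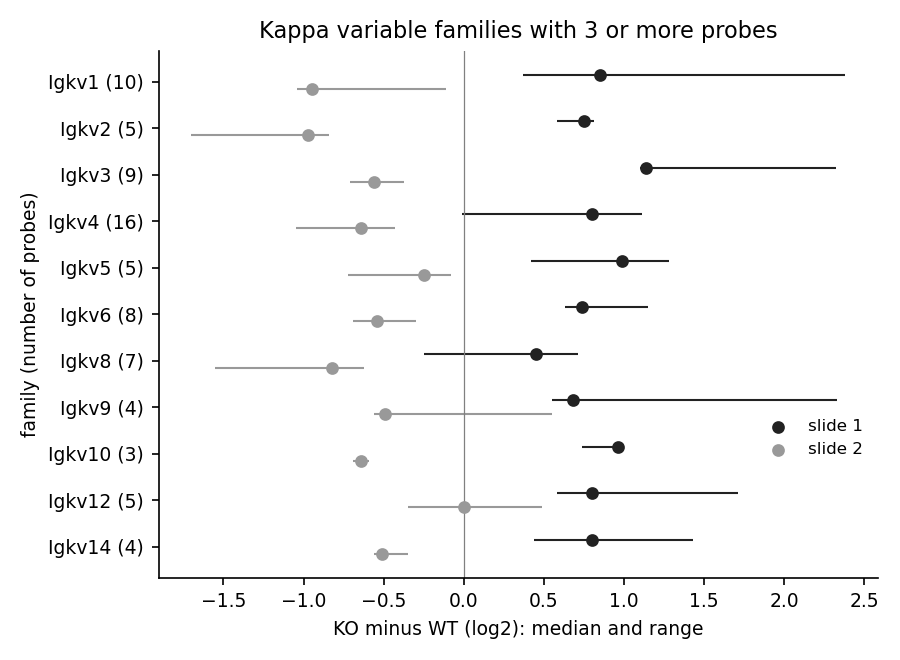
Median (point) and range (line) of the KO minus WT difference (log2) on slide 1 and slide 2 for kappa variable families with 3 or more probes. Every family median is above 0 on slide 1, and on slide 2 all are below 0 but that of Igkv12, at 0.00.

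Position, strand and composition were described for the 89 probes, which share arrays and samples. Spearman's rho of the difference with distance from the Igkc probe was 0.0256 on slide 1 and 0.14 on slide 2. With the probe's GC content, which ran from 35% to 55%, it was 0.0555 and -0.0285, and with mean level 0.0948 and -0.127. Probes on the plus strand (37) had a median of 1.03 on slide 1 and those on the minus strand (52) one of 0.76, and on slide 2 the medians were -0.58 and -0.62. RefSeq symbols matched 85 of the 89. The 81 listed as V segments had medians of 0.81 and -0.60, and the 4 listed as V segment pseudogenes 0.69 and -0.97.

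**Figure D5:**
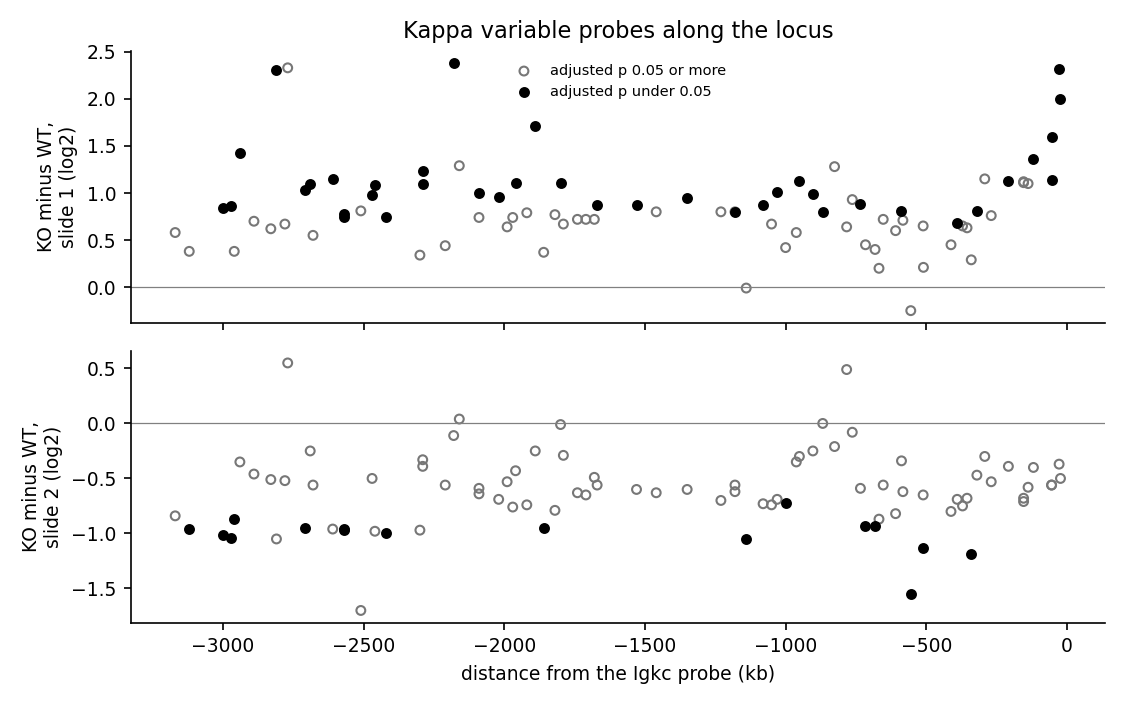
KO minus WT difference (log2) of the 89 kappa variable probes on slide 1 (upper) and slide 2 (lower) against distance from the Igkc probe in kb; filled points have adjusted p under 0.05. Positive values on slide 1 and negative values on slide 2 occur along the whole locus.

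Over both slides 5 light chain probes passed the threshold (background 16.8%), 1 higher (background 7.58%) and 4 lower (background 9.21%). With slide as an additive or a random block 2 passed, X96776 and Igkv8-27. Leaving out 1 array gave 2 without WT array 8 of slide 1, 3 without WT array 6 of slide 1 or without KO array 1, KO array 2, WT array 2 or WT array 5 of slide 2, 8 without KO array 9 or 10 of slide 1, and 9 without KO array 11 of slide 1. Kappa variable probes had a median of 0.09. By the naming rule only Igkv8-27 was lower with 1 sign on both slides; the other 4 are named because the count is small, after their values were seen. Igkv8-27 had levels of 0.88, 0.46, 0.78 and 0.95 in KO on slide 2, against 2.46, 1.99, 2.36 and 2.45 in WT. On slide 1 it had 1.79, 0.81, 1.49 and 1.48 in KO, against 0.97, 1.20, 2.02 and 2.38 in WT. The groups stood apart on slide 2 and overlapped on slide 1. It differed by -0.90 (SE 0.20, adjusted p 0.00743) over both slides, -0.25 (adjusted p 0.554) on slide 1 and -1.55 (adjusted p 0.00358) on slide 2. Igkv8-24 of the same family differed by -0.46 over both slides (adjusted p 0.0376). Its value was 0.21 on slide 1 and -1.13 on slide 2. U29631, the V-J cDNA of an anti-DNA hybridoma, was higher by 0.55 over both slides (adjusted p 0.0325). Slide 1 gave 1.11 and slide 2 -0.01. An undescribed probe in the lambda locus, A_55_P2053168, differed by -0.48 (adjusted p 0.0317). Slide 1 gave 0.05 and slide 2 -1.01.

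The probe with the largest decrease, X96776, was the only one that passed the test as lower on both slides. It had levels of 0.36, 1.59, 0.33 and 0.75 in KO on slide 1, against 2.42, 2.96, 1.65 and 1.68 in WT. On slide 2 it had -0.37, -0.24, -0.24 and 0.00 in KO, against 1.95, 1.38, 1.53 and 1.61 in WT. The groups did not overlap on either slide. It fell by 1.62 (SE 0.21, adjusted p 0.00016) over both slides, 1.42 on slide 1 (adjusted p 0.00481) and 1.83 on slide 2 (adjusted p 0.00176). Its description is a mRNA for a C2-Fcgamma fusion protein, and its place in the kappa locus (chr6:70468181-70468240, plus strand) comes from the array annotation. The sequence is shown because the same accession is also listed for a probe on chromosome 12 (115186605 to 115186664) described as immunoglobulin heavy variable 4-1.
X96776: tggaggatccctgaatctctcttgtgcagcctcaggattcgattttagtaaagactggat
That heavy chain probe differed by -1.47 (SE 0.44, adjusted p 0.0279) on slide 1. On slide 2 it was not well above background on any KO array and was so on 4 of 4 WT arrays (adjusted p 0.000216). What X96776 measures was not tested. It is counted among the light chain probes here by its annotated position alone.

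In the lambda locus the Iglv1 variable probe changed on both slides in opposite directions. It had levels of 5.95, 7.68, 6.40 and 6.41 in KO on slide 1, against 5.20, 5.77, 5.35 and 5.63 in WT, and 4.50, 4.30, 4.91 and 5.35 in KO on slide 2, against 5.99, 5.72, 5.89 and 6.14 in WT. The groups did not overlap on either slide. The difference was 1.12 (SE 0.31, adjusted p 0.0195) on slide 1, -1.17 (SE 0.31, adjusted p 0.0353) on slide 2 and -2.29 (adjusted p 0.00602) between slides. A cDNA probe also named Iglv1, at 19061905, is of no stated region. It lies nearer the first Iglc3 probe (19065462) than the Iglv1 variable probe (19085111). This cDNA probe differed by 0.65 (adjusted p 0.0746) and -0.75 (adjusted p 0.0903), and between slides by -1.40 (adjusted p 0.0208). Iglv3 differed by 0.31 (adjusted p 0.53) and -0.25 (adjusted p 0.739). The remaining measured lambda locus probes, AI662175 and A530030E21Rik, had differences of 0.18 and 0.44 on slide 1, and of -0.12 and 0.22 on slide 2.

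Of 12 measured plasma cell markers, 5 were higher on slide 1 (background 9.19%) and 1 was lower (background 14.1%), Irf4 with -0.60 (adjusted p 0.0134). On slide 2, 0 were higher (background 3.65%) and 4 lower (background 3.81%), and 8 passed the test between slides, all negative (background 5.14%). Their mean level was 2.57 to 3.78 in KO and 2.32 to 2.69 in WT on slide 1, and 1.89 to 2.46 in KO and 2.75 to 3.22 in WT on slide 2. Igj, the J chain of secreted antibody polymers, had levels of 7.82, 8.48, 7.44 and 7.90 in KO on slide 1, against 7.16, 7.34, 6.41 and 6.53 in WT, and differed by 1.05 (adjusted p 0.0296). On slide 2 it had 5.05, 4.26, 5.02 and 5.87 in KO, against 6.44, 5.81, 5.98 and 6.35 in WT, a difference of -1.09 (adjusted p 0.0524). Its difference between slides was -2.14 (adjusted p 0.00927). Tnfrsf17, a survival receptor of plasma cells, was higher by 2.04 (adjusted p 0.00223) on slide 1, and on slide 2 was not well above background in KO and at least 2.24-fold lower than in WT (adjusted p 0.00363). Sdc1, a plasma cell surface proteoglycan, differed by 0.70 (adjusted p 0.0861) on slide 1 and -1.42 (adjusted p 0.00666) on slide 2. The part of these cells in the V segment differences was not tested.

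Among other genes of the light chain pathway, both measured genes of the list named for the surrogate light chain fell over both slides (background 9.21%). Vpreb1 is part of the surrogate light chain, which pairs with the heavy chain before a light chain is made. Vpreb1 and Vpreb3 fell by 0.48 (adjusted p 0.0128) and 0.65 (adjusted p 0.0115). Of 7 recombination genes none passed over both slides (background 16.8%). On slide 1, 2 were lower (background 14.1%), Dntt with -0.93 and Xrcc5 with -0.31, and on slide 2, 1 was lower (background 3.81%), Lig4 with -0.55. A further list held 27 genes of factors acting at light chain enhancers or V promoters, or on such factors. Over both slides 2 were higher (background 7.58%), Pou2f2 by 0.36 and its coactivator Pou2af1 by 0.24. The 4 lower (background 9.21%) were Irf4, with -0.47 (adjusted p 0.0101), Tcf12, Id2 and Rel. On slide 1 Rel was well above background on 0 of 4 KO and 1 of 4 WT arrays. There, 1 of the 27 genes was higher (background 9.19%) and 6 were lower (background 14.1%), Rel among them. On slide 2, 1 was higher (background 3.65%) and 0 lower (background 3.81%). Between slides 4 were positive (background 8.72%) and 0 negative (background 5.14%). Cd79a and Cd79b, which carry the receptor's signal, did not pass in any comparison. Genes of other cells also differed. Of 9 T cell markers, 3 were higher on slide 2 (background 3.65%) and 0 lower (background 3.81%). Lck was higher by 0.60 (adjusted p 0.00497), and the others past the test there were Cd3d and Cd3g. Of the rest, Cd3e, Cd4, Cd8a and Thy1 were negative and Cd2 and Cd8b1 positive, none past the test. On slide 2 Cd3d was well above background on 4 of 4 KO and 1 of 4 WT arrays. Cd3g was so on 0 of 4 arrays of either genotype, so its difference there lies among undetected values. Of 5 measured erythroid genes, 2 were higher on slide 2 (background 3.65%) and 0 lower (background 3.81%). They were the globin genes Hba-a1, by 4.93 (adjusted p 0.000107), and Hbb-b1, which was not well above background there in WT. Alas2, Ahsp and Slc4a1 did not pass, and Slc4a1 was negative with -0.29. None passed on slide 1, where Hba-a1 differed by -0.47 (adjusted p 0.595). Of 9 macrophage and monocyte markers, 1 was higher over both slides (background 7.58%), Lyz1 by 1.17 (adjusted p 0.00743). The part of these other cells was not tested.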

How the data were processed

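Spot intensity values are the authors' scanner output. Per the file headers they come from Agilent Feature Extraction 10.7.3.1, which subtracted background and removed spatial trends inside each array, with no scaling between arrays. An array had 62976 spots, including 3671 controls. Here, log2 of the processed signal minus each array's 75th percentile over spots that are not controls was used, and outlier spots were left out. limma 3.58.1 (R 4.3.3) fitted a mean per genotype on each slide, 4 in all, over probes that stood well above background in 4 or more of the 16 arrays, and p-values were adjusted over all 32873. The authors also deposited a table of log2 values, with column medians of 5.58 to 5.60 on slide 1 and 6.49 to 6.50 on slide 2, and how it was made is not given in the sources used here; the submitters' processing notes name limma. It served as an alternative within slides.

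Named probes are every constant and lambda locus probe, then, among kappa variable probes that passed over both slides and had 1 sign on each, the 8 higher and 8 lower that differed most, and lastly the 4 most positive and 4 most negative that passed between slides. Lists used the brightest probe per gene. The members, lists and rules were chosen with earlier results of these data known. The script was tested on simulated data. The number of arrays limits the precision. Symbols were matched to RefSeq (GRCm38.p6) for names alone. Same-numbered samples of slide 2 were checked for pairing, with correlations of 0.0139, 0.0957 and 0.0635, and were not treated as pairs.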

Additional observations from a re-analysis of the deposited data

Results flagged for a closer look

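The KO minus WT difference differed between slides for 61 light chain probes by limma's test of that difference. Among the named probes it was -3.35 for Igkv11-125, -2.68 for Igkv3-2, -2.49 for Igkv3-1, -2.49 for Igkv1-99, -1.30 for Igkv8-27, -1.34 for Igkv8-24 and -1.13 for U29631. In the lambda locus it was -2.29 for the Iglv1 variable probe, -1.40 for the Iglv1 cDNA probe and -1.06 for A_55_P2053168. The first Iglc3 probe had 1 array far from the rest of its group, WT array 5 of slide 2, with a gap of 0.867 of the group's range; of 76 groups checked this was the only one, where chance gives about 1 in 20.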

How the results depend on the processing

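The median kappa variable difference kept its sign on slide 1, on slide 2 and between slides under every alternative run; leaving out 1 array gave 0.55 to 0.95, -0.75 to -0.47 and -1.62 to -1.16, and -0.05 to 0.17 over both slides. Counts moved more. The 5 light chain probes called over both slides became 9 with normexp background correction, 3 with no filter on dim probes, 2 with slide as an additive or a random block, 12 with array weights, 10 in the authors' deposited table and 2 to 9 without 1 array. The 42 higher on slide 1 became 26 with no filter, 3 with each slide fitted alone, 14 with array weights and 17 to 54 without 1 array; the 1 lower became 0 with each slide alone, 2 with array weights and 1 to 2 without 1 array. On slide 2 the 19 lower became 35 with each slide alone, 66 with array weights and 4 to 27 without 1 array, and 1 was higher with array weights. Between slides the 61 negative became 27 with no filter and 29 to 73 without 1 array, and 1 was positive with normexp or array weights, and 0 to 1 without 1 array. With a replicate block of numbers 1 to 3 on slide 2, 56 were lower, and 51 on the same arrays without the block, a fit chosen after seeing the data. Of all probes called on slide 1, 39.4% were higher, against 58.1% when scaled to probes detected on all arrays and 47.8% after quantile normalization; on slide 2 the share was 48.9%, against 29.9% with the first of these and 65.4% with median scaling. Median scaling moved the median of all probes between slides to 0.16, against 0.07. For the named probes, 1844 single values kept their direction and side of the threshold, 93 no longer passed, 72 newly passed, 5 moved by more than the replicate spread and none that passed changed sign. The cause of these changes was not tested.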
